A study of Mus musculus with 16 samples.

Results

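The antioxidant and NADPH producing enzymes described here are 39 genes listed by symbol. They comprise the regulators NRF2 (Nfe2l2) and KEAP1, the enzymes NQO1 and HMOX1, the glutathione and thioredoxin systems, peroxiredoxins, superoxide dismutases and catalase, and enzymes that make NADPH or belong to the pentose phosphate pathway. Of the 39 genes, 37 had a named probe among the 16629 genes named on the arrays. The symbols Gsr and Me1 had no row. RNA was measured on 16 Illumina arrays of primary pancreatic islets and primary hepatocytes taken from wild-type B6 mice and grown in culture. The 4 groups, with 4 arrays each, were islets with 10 nM FK866, islets with 0.1% DMSO (control islets), hepatocytes with 200 nM FK866 and hepatocytes with 0.1% DMSO (control hepatocytes), all treated for 48 h. FK866 inhibits NAMPT, the enzyme that makes nicotinamide mononucleotide on the way to NAD, and the design addressed the effect of NAD depletion. The labels do not say whether arrays of a group came from separate animals, so the p-values measure the spread between these samples only, which may be technical.

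Reactive oxygen species are removed in steps. Superoxide dismutases turn superoxide into hydrogen peroxide, which catalase, glutathione peroxidases and peroxiredoxins then remove. The last 2 families are recharged by glutathione or thioredoxin, and those in turn by NADPH from the pentose phosphate pathway, malic enzyme and the NADP-dependent isocitrate dehydrogenases. NRF2 is a transcription factor that KEAP1 holds back and that induces many of these genes under oxidative stress by binding antioxidant response elements. NADP itself is made from NAD. Liver is known for high antioxidant capacity, and rodent beta cells are known for low catalase and glutathione peroxidase activity.

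Promoter sequences are shown because many of the genes shared a direction between the tissues. The antioxidant response element core was searched as TGACNNNGC on both strands in RefSeq windows of build GRCm38.p6, each 250 bases before to 50 after a start site. Of the 39 genes 33 had a window, and 10 of these 33 (30.3%) held the letters, against 14% of 27025 genes. Hmox1, Gclc, Gsr, Gsta4, Prdx6 and Sod3 had no window. Sequence outside the windows was not searched, so a gene without a match may hold the letters elsewhere. The 10 were Gsta3, Nfe2l2, Srxn1, Gclm, Prdx1, Pgd, Me1, Txnrd1, Sod1 and G6pdx. The 7 whose match lies wholly upstream of the start site are printed 5′ to 3′ on the gene's strand, with the match in capitals (in either orientation).
Gsta3, chr1:21240439-21240497, plus strand: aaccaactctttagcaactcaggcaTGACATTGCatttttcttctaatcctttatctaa
Nfe2l2, chr2:75704870-75704913, minus strand: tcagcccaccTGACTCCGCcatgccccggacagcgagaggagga
Gclm, chr3:122245398-122245456, plus strand: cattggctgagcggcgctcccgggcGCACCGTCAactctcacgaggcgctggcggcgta
Prdx1, chr4:116685441-116685499, plus strand: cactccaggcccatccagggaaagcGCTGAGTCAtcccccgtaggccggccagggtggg
Txnrd1, chr10:82859089-82859147, plus strand: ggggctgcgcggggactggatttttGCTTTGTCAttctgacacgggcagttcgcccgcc
Sod1, chr16:90220681-90220739, plus strand: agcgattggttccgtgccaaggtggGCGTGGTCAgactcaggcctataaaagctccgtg
G6pdx, chrX:74428904-74428962, minus strand: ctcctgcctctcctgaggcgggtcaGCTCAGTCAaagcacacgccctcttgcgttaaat
The first 5 of these genes were lower in control islets than in control hepatocytes, while Sod1 and G6pdx did not pass the test described further on. Of the 9 motif-holding genes that were tested, 7 were called lower in islets, against 27 of all 36 tested members. A match of letters is a description of the window and says nothing of binding.

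All 16 arrays had 11018 to 11846 probes detected of 25697. Hepatocyte markers were lower in control islets for 12 of 13 tested genes and beta cell markers higher for 13 of 14. Of 16 named hepatocyte markers, 13 were detected on all control hepatocyte arrays, and Pck1 and Hpd on no array. Fibroblast and stellate markers were lower in control islets for 3 of 7 tested genes and higher for 1. Their mean over 12 named markers was 7.26 to 7.69 in control hepatocytes, where Vim averaged 12.86 against 7.49 in control islets. Macrophage markers were higher in control islets for 8 of 10 tested genes, with a mean log2 signal over 13 named markers of 7.45 to 7.91 in control islets and 6.16 to 6.60 in control hepatocytes; Itgam, Ptprc and Lyz1 were detected on no array. The macrophage markers Cd68 and Cd14 were lower in control islets, at 8.67 and 6.17 against 10.34 and 11.25 in control hepatocytes. Duct markers were lower in control islets for 5 of 6 genes. The exception was Krt7, at 12.81 in control islets and 5.75 in control hepatocytes. What such cells contribute to the differences below was not tested, and in these bulk samples fewer cells of a type and less RNA per cell cannot be told apart. The 2 islet arrays numbered 2 stood apart. Their median signals were 18.0 (FK866) and 15.4 (control) against 26.9 to 33.1 on the other islet arrays, and their median correlations with arrays of their tissue 0.937 and 0.872 against 0.980 to 0.992. The mean over 12 fibroblast and stellate markers was 7.22 and 7.82 on them, against 6.40 to 6.73 on the other FK866 islet arrays and 6.39 to 6.84 on the other control islet arrays, with Lum detected on no array. Values without these 2 arrays are therefore given beside several of the results that they move. The mean over 8 named acinar markers was 6.45 on control islet array 3, against 5.11 to 5.46 on the other control islet arrays. Of these markers Ptf1a and Rbpjl were detected on no array. What acinar cells on that array contribute was not tested.

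The antioxidant and NADPH genes were mostly lower in control islets than in control hepatocytes. Of 36 tested members, 27 were lower and 3 higher by limma's moderated test at a Benjamini-Hochberg adjusted p under 0.05 over 9360 tested genes, among which 28.3% were called lower and 31.9% higher. The median member differed by -1.96 on the log2 signal scale, against 0.06 over all tested genes. Past a 2-fold difference, 26 members were lower and 2 higher, where 21.8% and 24.5% of all tested genes were. The 3 higher members were Gpx3, Idh2 and Keap1. The lower members include Gsta4, which entered the test through hepatocyte arrays alone. The 6 members Gstt1, Glrx, Prdx2, Sod1, Sod2 and G6pdx did not pass, and Sod3 was not tested because too few arrays detected it. All 30 called members were also called in the same direction in each of the 8 fits that left out 1 array. Of the islet arrays numbered 2 only the control one enters this comparison, so leaving those out is 1 of these 8 fits. In that fit 29 members were lower and 4 higher, with 34.8% of all tested genes called lower and 39.7% higher. Of the called members, Prdx3, Hmox1, Gstp1, Keap1 and Gpx1 moved most in proportion there, to -1.33, -1.66, -2.22, 0.53 and -1.99.

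**Figure D1:**
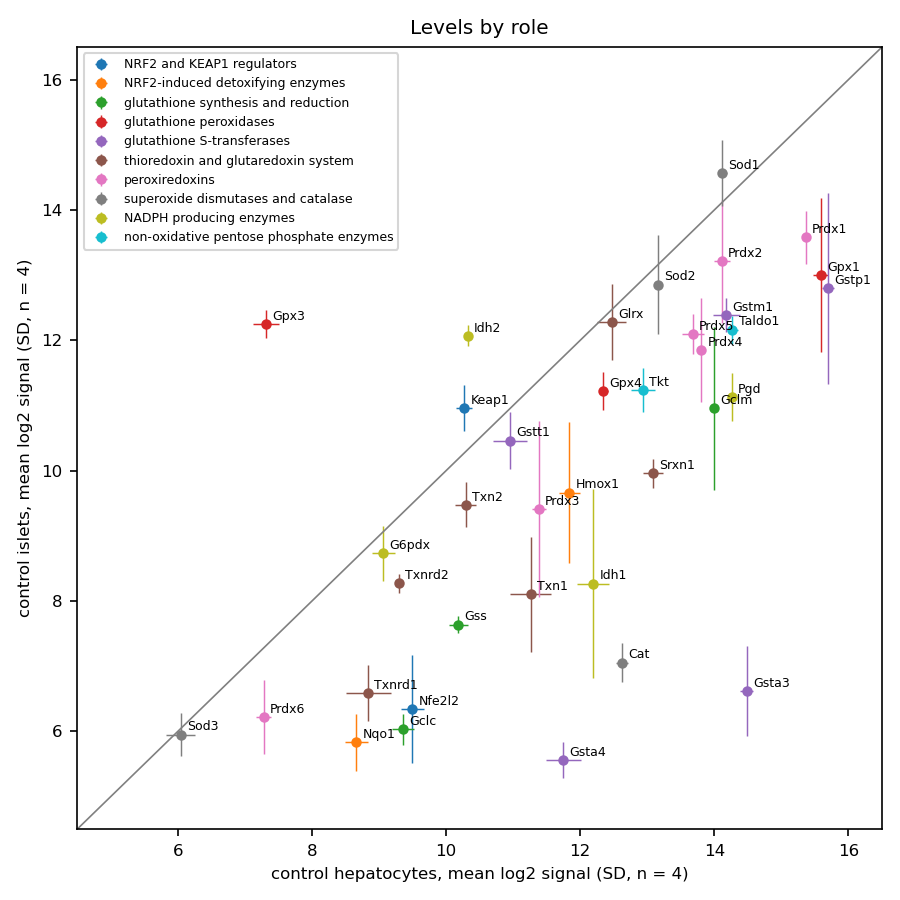
Mean log2 signal (SD, n = 4 arrays) of each member in control islets (vertical) against control hepatocytes (horizontal), coloured by role; the grey line marks equal signal. Most points, 32 of 36 tested, lie below the line, and Gpx3 lies farthest above it.

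The regulators split. Nfe2l2, which encodes NRF2, read 7.29, 5.63, 5.66 and 6.79 on the 4 control islet arrays, against 9.74, 9.37, 9.47 and 9.41 on the control hepatocyte arrays. Every islet array was below every hepatocyte array, and only 2 of 4 islet arrays detected the probe. The difference was -3.15 (SE 0.37, adjusted p = 6.33e-05, limma, n = 4 per group). Keap1, whose product holds NRF2 back, read 10.94, 11.45, 10.60 and 10.86 in control islets, against 10.10, 10.24, 10.35 and 10.37 in control hepatocytes. Here all islet arrays were above all hepatocyte arrays, by 0.69 (SE 0.20, adjusted p = 0.0148, limma, n = 4 per group). On the scale of the authors' deposited scores Keap1 did not pass (0.11 score units, adjusted p = 0.121, limma). Its 3 other probes differed by 0.06, 0.31 and 0.50.

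Both NRF2-induced detoxifying enzymes were lower in islets. Nqo1, a quinone reductase, averaged 5.83 ± 0.44 in control islets and 8.66 ± 0.17 in control hepatocytes (SD, n = 4 each), a difference of -2.83 (SE 0.23), with 2 of 4 islet arrays detecting it. Hmox1, which breaks down heme, averaged 9.66 ± 1.09 in control islets and 11.84 ± 0.16 in control hepatocytes, a difference of -2.18 (SE 0.47). Hmox1 read 8.11 on control islet array 2 and 9.71 to 10.49 on the other 3.

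All 3 measured genes of glutathione synthesis were lower in islets. Gclc, the catalytic subunit of the rate-limiting glutamate-cysteine ligase, read 5.69, 6.20, 6.10 and 6.13 on the control islet arrays, against 9.38, 9.56, 9.32 and 9.17 on the control hepatocyte arrays. The groups were far apart, by -3.33 (SE 0.18, adjusted p = 2.64e-07, limma, n = 4 per group), with 3 of 4 islet arrays detecting it. Gclm, the modifier subunit, differed by -3.04 (SE 0.53) and Gss, glutathione synthetase, by -2.54 (SE 0.15). Gclm was 9.08 on control islet array 2 and 11.50 to 11.65 on the other 3, and without the islet arrays numbered 2 its difference was -2.41 (SE 0.10).

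The glutathione peroxidases went opposite ways. Gpx3, the secreted extracellular form, read 12.40, 12.33, 12.34 and 11.92 in control islets, against 7.40, 7.05, 7.31 and 7.50 in control hepatocytes. All islet arrays were above all hepatocyte arrays, by 4.93 (SE 0.18), which is 30.6-fold (adjusted p = 2.26e-08, limma, n = 4 per group). Gpx1, the main cytosolic form, was lower in islets by -2.58 (SE 0.50), with 11.23 on control islet array 2 and 13.59 to 13.61 on the other 3. Gpx4, which reduces lipid peroxides in membranes, was lower by -1.13 (SE 0.18). A second Gpx4 probe, detected on 8 of 16 arrays, differed by 0.64 in the other direction.

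The glutathione S-transferases, which join glutathione to foreign compounds, held the 2 largest differences downward among the members, at Gsta3 and Gsta4. Gsta3 read 6.22, 7.29, 7.10 and 5.85 on the control islet arrays, against 14.62, 14.47, 14.41 and 14.42 on the control hepatocyte arrays. The difference was -7.86 (SE 0.31, adjusted p = 4.37e-08, limma, n = 4 per group). Gsta4 read 5.31, 5.95, 5.50 and 5.48 in control islets, against 12.01, 11.48, 11.59 and 11.92 in control hepatocytes. It was not well above background on any islet array and was at least 59.2-fold lower there (measured difference -6.19). That bound sets the hepatocyte mean against, per islet array, the higher of its own signal and the lowest detected signal. Gsta4 entered the test through its hepatocyte arrays alone, which fixed its direction, so its p-value is not given. Gstp1 was lower by -2.90 (SE 0.61) and Gstm1 by -1.79 (SE 0.19), and Gstt1 differed by -0.49 (SE 0.25, adjusted p = 0.110), or by -0.28 (SE 0.15) without the islet arrays numbered 2. The alpha and mu classes hold near-identical paralogs, and how far these probes tell them apart was not tested.

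In the thioredoxin and glutaredoxin system 5 of 6 genes were lower in islets. Txn1, cytosolic thioredoxin, read 8.75, 6.81, 8.42 and 8.42 in control islets, against 11.03, 11.69, 11.25 and 11.07 in control hepatocytes. The groups did not overlap, and control islet array 2 was the lowest (difference -3.16, SE 0.40, adjusted p = 0.000108, limma, n = 4 per group). Srxn1, sulfiredoxin, which repairs overoxidized peroxiredoxins, differed by -3.12 (SE 0.17), and Txnrd1, the cytosolic thioredoxin reductase, by -2.25 (SE 0.26). The mitochondrial partners were closer between the tissues, with -1.02 (SE 0.14) for Txnrd2 and -0.81 (SE 0.20) for Txn2. Glrx, glutaredoxin, differed by -0.19 (SE 0.29) and, without the islet arrays numbered 2, by 0.08 (SE 0.17).

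Of the 6 peroxiredoxins, thiol enzymes that reduce peroxides, 5 were lower in control islets. Prdx1 differed by -1.78 (SE 0.21), the mitochondrial Prdx3 by -1.97 (SE 0.57), Prdx4 of the endoplasmic reticulum by -1.95 (SE 0.35), Prdx5 by -1.59 (SE 0.19) and Prdx6 by -1.06 (SE 0.27). Prdx6 was detected on 2 of 4 control islet arrays. Prdx2 differed by -0.90 (SE 0.41, adjusted p = 0.0830, limma), although all its islet arrays, at 11.80 to 13.71, were below all hepatocyte arrays, at 14.00 to 14.23. Without control islet array 2 it passed at -0.43 (SE 0.11, adjusted p = 0.00559, limma). Its 2 other probes, detected on all 16 arrays, were instead higher in islets by 0.55 and 0.31.

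The 2 intracellular superoxide dismutases did not pass, whereas catalase was far apart. Cat, which decomposes hydrogen peroxide in peroxisomes, read 7.24, 6.61, 7.22 and 7.15 in control islets, against 12.74, 12.60, 12.62 and 12.53 in control hepatocytes. All islet arrays were far below all hepatocyte arrays, by -5.57 (SE 0.18, adjusted p = 1.27e-08, limma, n = 4 per group), or 47.4-fold. Sod1, the copper-zinc form of the cytosol, read 13.89 to 15.11 in control islets and 14.06 to 14.21 in control hepatocytes, a difference of 0.44 (SE 0.25, adjusted p = 0.148). Without the islet arrays numbered 2 it passed at 0.67 (SE 0.15, adjusted p = 0.00216). Sod2, the mitochondrial manganese form, differed by -0.30 (SE 0.34, 95% interval -1.07 to 0.47) and, without those arrays, by 0.08 (SE 0.11). Sod3, the extracellular form, was detected on 2 of 4 control islet and 1 of 4 control hepatocyte arrays.

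The NADPH producing enzymes also differed among themselves. Idh1, the cytosolic NADP-dependent isocitrate dehydrogenase, read 9.31, 6.15, 8.57 and 9.04 in control islets, against 12.39, 11.85, 12.23 and 12.30 in control hepatocytes. The groups did not overlap, and array 2 was lowest in both tissues (difference -3.93, SE 0.61, adjusted p = 0.000421, limma, n = 4 per group; -3.22 without the islet arrays numbered 2). Its mitochondrial counterpart Idh2 read 12.03, 12.31, 11.99 and 11.96 in control islets, against 10.38, 10.26, 10.29 and 10.34 in control hepatocytes. All islet arrays were above all hepatocyte arrays, by 1.75 (SE 0.15, adjusted p = 6.95e-06, limma).

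In the oxidative pentose phosphate pathway, Pgd, 6-phosphogluconate dehydrogenase, read 10.78, 11.65, 11.03 and 11.04 in control islets, against 14.22, 14.29, 14.31 and 14.21 in control hepatocytes. It was lower in every islet array, by -3.13 (SE 0.20, adjusted p = 1.03e-06, limma, n = 4 per group). G6pdx, glucose-6-phosphate dehydrogenase, which feeds Pgd, differed by -0.33 (SE 0.23, adjusted p = 0.236), and without the islet arrays numbered 2 by -0.54 (SE 0.13, adjusted p = 0.00381). The transaldolase Taldo1 and the transketolase Tkt of the non-oxidative branch were lower in islets by -2.10 (SE 0.16) and -1.70 (SE 0.21). Mod1, an older symbol of the malic enzyme gene Me1, differed by -2.62 (SE 0.18). Me1 itself is a listed gene with no row under that symbol, so Mod1 is not in the counts.

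**Figure D2:**
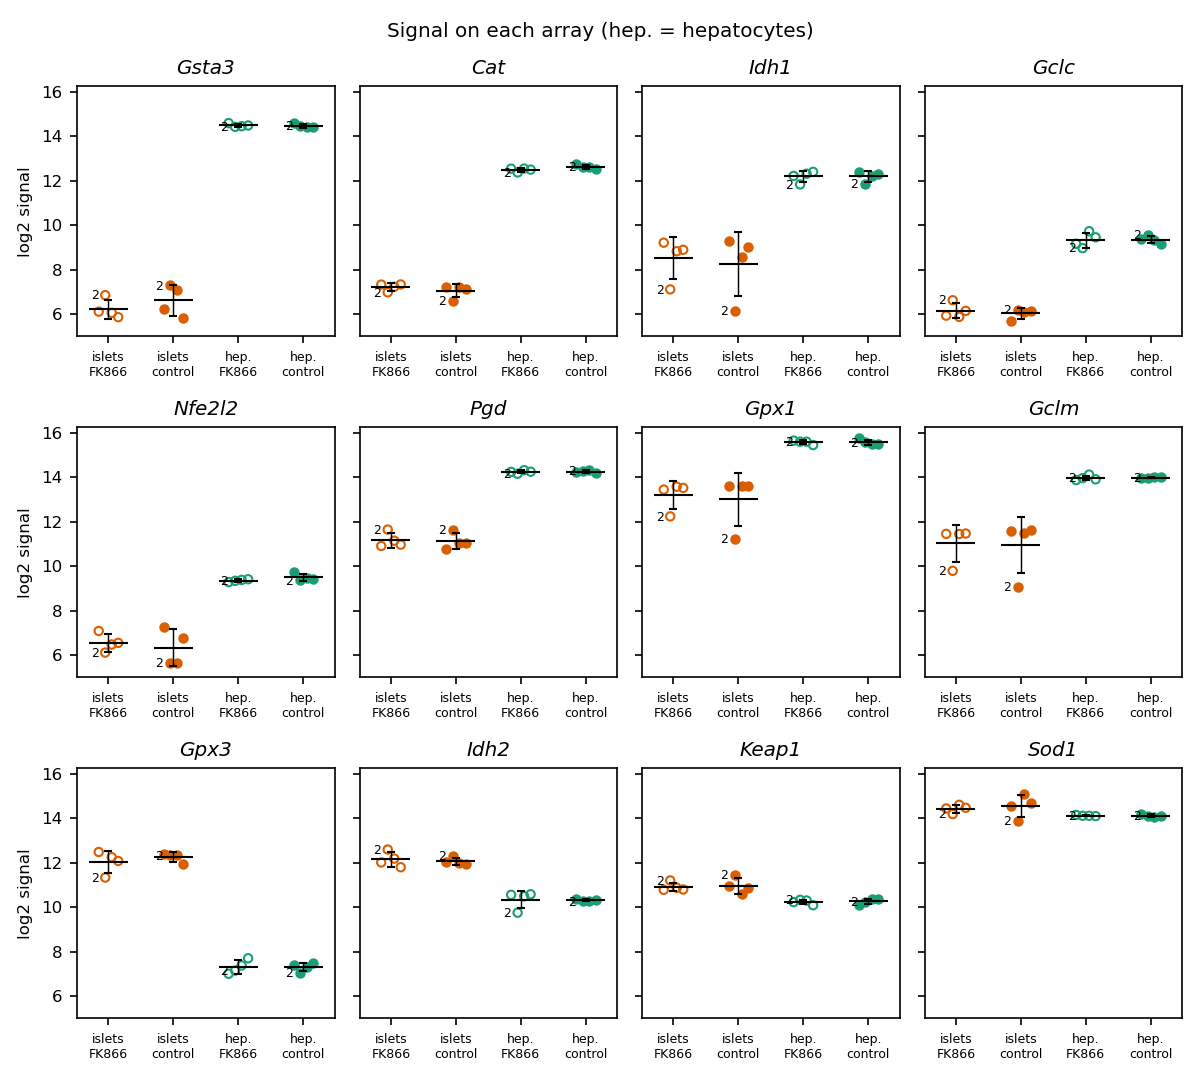
Log2 signal of 12 members on each array; groups run FK866 islets, control islets, FK866 hepatocytes and control hepatocytes from left to right, bars show the mean and SD (n = 4) and the digit 2 marks the array numbered 2. Islet arrays numbered 2 read lowest for Gpx1, Gclm and Idh1, and Gpx3, Idh2 and Keap1 sit higher in islets.

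The same comparison was made in the FK866 arrays, which the first did not use, although the doses differed. The 2 sets are not independent, since same-numbered arrays of a tissue deviated together. Of 37 tested members 28 were lower and 3 higher in FK866 islets than in FK866 hepatocytes, with 31.6% of 9368 tested genes called lower and 36.9% higher. The median member differed by -1.69, against 0.07 over all tested genes. All 30 members called in the control arrays were called in the same direction here, which is 100% of the control calls and 96.8% of the FK866 calls. Over the 9134 genes tested in both sets, 5336 were called in the same direction in both, which is 96.7% of their control calls and 85.2% of their FK866 calls. The extra call was Prdx2, with 13.53, 12.43, 13.60 and 13.57 in FK866 islets, against 14.17, 13.95, 13.96 and 14.14 in FK866 hepatocytes. Its groups did not overlap, and it differed by -0.77 (SE 0.25, adjusted p = 0.0215, limma, n = 4 per group), or by -0.48 (SE 0.10) without FK866 islet array 2.

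In these FK866 arrays Gsta3 differed by -8.27 (SE 0.20), Cat by -5.27 (SE 0.13), Gpx3 by 4.73 (SE 0.25), Idh2 by 1.80 (SE 0.23) and Keap1 by 0.68 (SE 0.14). Gsta4 was again not well above background on any islet array and was at least 53.2-fold lower. It again entered the test through hepatocyte arrays alone. Sod1 (0.31, SE 0.13, adjusted p = 0.0534), Gstt1 (-0.46, SE 0.21, adjusted p = 0.0761), Sod2, Sod3, Glrx and G6pdx did not pass. Without FK866 islet array 2, Sod1 passed at 0.39 (SE 0.09, adjusted p = 0.00236, limma), and Prdx3 was lower by -0.86 (SE 0.11), against -1.32 with all arrays.

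**Figure D3:**
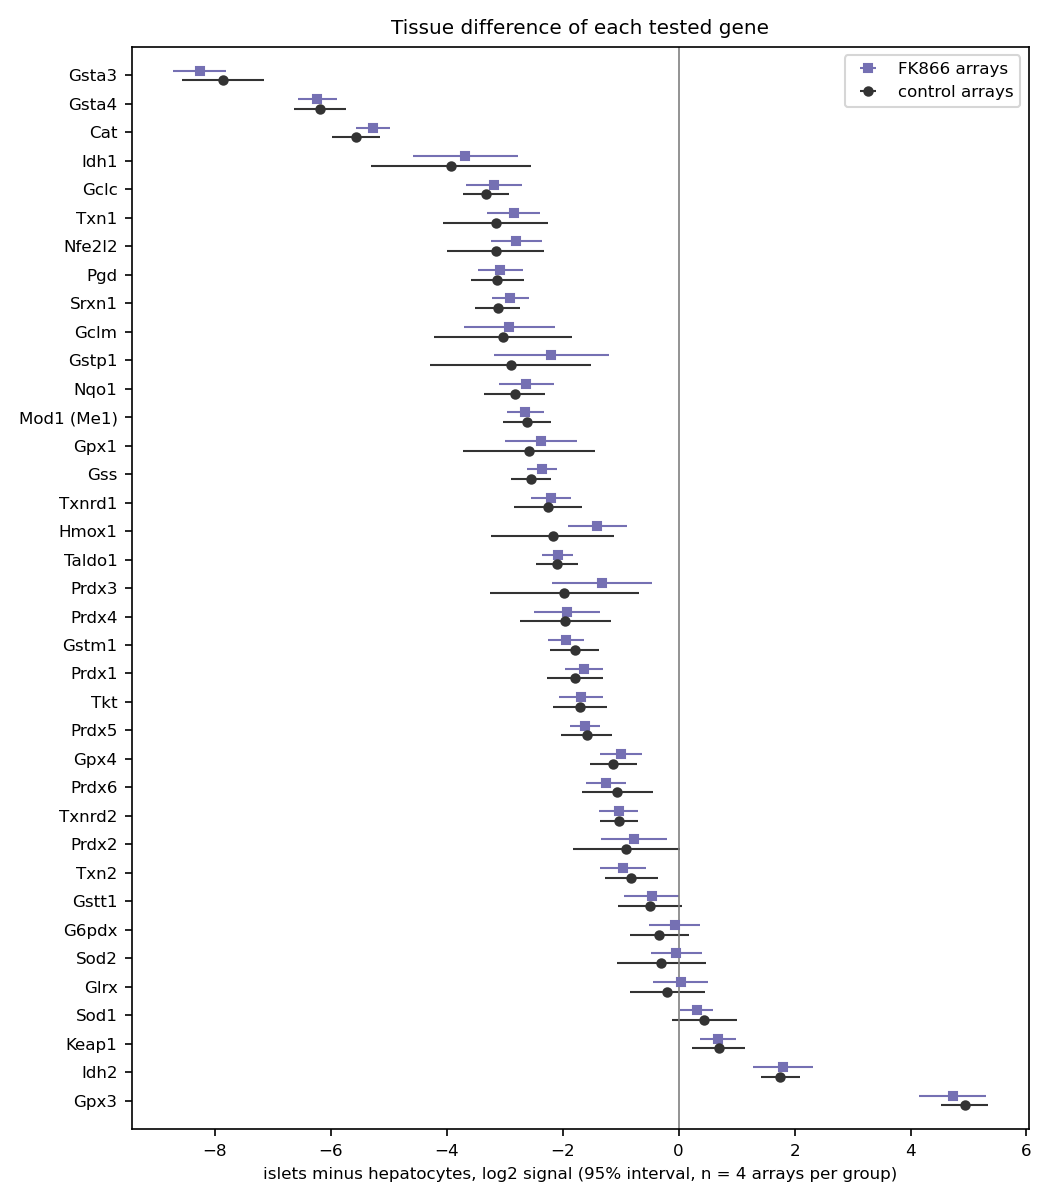
Difference of log2 signal, islets minus hepatocytes, with 95% intervals, in FK866 arrays (squares) and control arrays (circles), n = 4 arrays per group, for each tested gene. Differences run from -7.86 for Gsta3 to 4.93 for Gpx3 in the control arrays.

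Other genes of the same pathways were listed alongside, 123 of them named. Of 105 tested, 52 were lower and 23 higher in control islets than in control hepatocytes, where 28.3% and 31.9% of all tested genes were. Their median was -0.63. The 5 largest differences downward were at Gsta2, Gsta1, Mgst1, Cyp2a5 and Slc39a4. Gsta2 and Gsta1, further alpha class transferases, and Cyp2a5, a cytochrome P450, were not well above background on any control islet array and were at least 523-fold, 455-fold and 124-fold lower there. Mgst1, a microsomal transferase, was lower by -8.69 (SE 0.28) and Slc39a4, a zinc importer, by -7.15 (SE 0.19). Upward, Gpx2, known from gut epithelium, was higher by 3.05 (SE 0.22), the metallothionein Mt2 by 2.59 (SE 0.18), the glutathione-degrading Chac1 by 2.51 (SE 0.25) and Gsto2 by 2.48 (SE 0.22). Ggt7 was not well above background on any control hepatocyte array and was at least 5.29-fold higher in islets. Gsta2, Gsta1, Cyp2a5 and Ggt7 entered the test through a single tissue, which fixed their direction in the counts above.

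The other NADPH and pentose phosphate genes had a median of 0.62, with 6 higher and 3 lower of 13 tested, where 31.9% and 28.3% of all tested genes were. The early and middle steps Pgls, Rpia and Rpe were higher in control islets by 0.74 (SE 0.28), 0.62 (SE 0.22) and 0.74 (SE 0.23). The mitochondrial folate enzymes Aldh1l2 and Mthfd2, which yield reduced cofactors, were higher by 2.18 (SE 0.27) and 1.32 (SE 0.36), and Idh3a, the NAD-dependent isocitrate dehydrogenase subunit, by 0.96 (SE 0.14). The 3 lower genes were H6pd, the NADPH source of the endoplasmic reticulum lumen (-2.79, SE 0.18), the cytosolic folate enzyme Aldh1l1 (-2.20, SE 0.18) and the NAD kinase Nadk (-1.42, SE 0.19).

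The response to FK866 was examined in each tissue on its own. In islets 25 of 36 tested members were higher and 11 lower with FK866, and 0 passed by limma, where 0% of 8915 tested genes did. The median member differed by 0.07, against -0.00 over all tested genes. At an unadjusted p under 0.05, 0 members and 1.36% of all tested genes stood. Without both islet arrays numbered 2, which keeps the pairs whole, 25 were again higher and 11 lower, with a median of 0.04. Without control islet array 2 alone 16 were higher and 20 lower, and without FK866 islet array 2 alone 23 were higher and 13 lower. Under scaling to each array's 75th percentile 20 were higher and 16 lower.

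The islet members with the smallest p were Hmox1, Gss and Srxn1 without, and Gstp1, Hmox1 and Prdx3 with, the replicate number as a block. Hmox1 read 10.30, 9.70, 10.42 and 10.79 with FK866, against 9.67, 8.09, 10.29 and 10.44 in control. FK866 was higher in each of the 4 numbered pairs, by 0.62, 1.62, 0.13 and 0.35, but the groups overlapped (0.68, SE 0.51, 95% interval -0.48 to 1.84, limma adjusted p = 1.00, n = 4 per group). Pair 2 was the largest, and Hmox1 differed by 0.37 (SE 0.23) without both islet arrays numbered 2 and by 0.17 without the control one alone. Gss read 7.78, 7.77, 7.88 and 7.80 with FK866, against 7.44, 7.59, 7.73 and 7.69 in control. It was the only member whose groups did not overlap upward, which held for 0.516% of all tested genes, and it differed by 0.19 (SE 0.15). Its other probes differed by 0.52 (detected on 14 of 16 arrays) and 0.003 (detected on all 16).

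Srxn1 read 10.04, 10.12, 10.06 and 10.29 with FK866, against 9.76, 9.92, 9.75 and 10.22 in control. It was higher in 4 of 4 pairs and the groups overlapped, at 0.21 (SE 0.17). Gstp1 read 13.88, 11.79, 13.66 and 14.09 with FK866, against 13.66, 10.70, 12.62 and 13.81 in control. It differed by 0.66 (SE 0.76), by 0.51 (SE 0.31) without both islet arrays numbered 2, and by -0.01 without the control one alone. Prdx3 read 10.50, 8.57, 10.22 and 10.42 with FK866, against 10.14, 7.47, 9.43 and 10.45 in control. It differed by 0.55 (SE 0.69), by 0.37 (SE 0.25) without both islet arrays numbered 2, and by -0.08 without the control one alone. Both genes were lowest on array 2 in each group.

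Across the regulators and NRF2 targets in islets, Nfe2l2 differed by 0.22 (SE 0.41), Keap1 by -0.04 (SE 0.21), Nqo1 by 0.35 (SE 0.29), Gclc by 0.12 (SE 0.22), Gclm by 0.09 (SE 0.63), Txnrd1 by -0.05 (SE 0.24) and G6pdx by -0.03 (SE 0.26). None of these differed beyond the spread between arrays. The genes higher in 4 of 4 pairs were Nqo1, Hmox1, Gss, Gstp1, Srxn1 and Cat, 6 of 36 or 16.7%, against 9.23% of all tested genes. Gstm1 alone was lower in 4 of 4 pairs, against 12% of all tested genes. Intervals of 23 of 36 members lay within a 2-fold change in either direction. The other 13, among them Hmox1, Nfe2l2, Nqo1, Gclm, Idh1 and Prdx3, reached past 2-fold in this unpaired fit. With the replicate number as a block, 34 of 36 intervals lay within 2-fold, and those of Gstp1 (0.23 to 1.09) and Hmox1 (0.14 to 1.22) reached past it. The SE fell to 0.17 for Gclm, 0.20 for Idh1 and Nfe2l2 and 0.18 for Nqo1 in that fit.

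In hepatocytes the members lay closer to 0. With 200 nM FK866 24 of 36 tested members were lower and 12 higher, and 0 passed by limma, where 0% of 8561 tested genes did. At an unadjusted p under 0.05, 0 members and 1.69% of all tested genes stood. The median member differed by -0.01, against 0.00 over all tested genes. Without FK866 hepatocyte array 2, 18 were higher and 18 lower, with a median of -0.01, and without both hepatocyte arrays numbered 2, 15 were higher and 21 lower. The 95% intervals of all 36 lay within a 2-fold change in either direction.

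In hepatocytes the smallest p were those of G6pdx, Prdx4 and Cat without, and Gsta4, G6pdx and Nqo1 with, the replicate number as a block. The enzyme G6pdx opens the oxidative pentose phosphate pathway. It read 8.63, 8.58, 9.12 and 8.83 with FK866, against 9.31, 8.98, 9.15 and 8.91 in control. It was lower in 4 of 4 pairs, by -0.68, -0.40, -0.03 and -0.09, while the groups overlapped (-0.30, SE 0.14, 95% interval -0.61 to 0.01, limma adjusted p = 1.00, n = 4 per group). Prdx4 read 13.85, 13.70, 13.80 and 13.79 with FK866, against 13.95, 13.91, 13.88 and 13.89 in control. It was the only member whose FK866 arrays were all below all controls, as 0.456% of all tested genes were, and its difference was -0.12 (SE 0.07).

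Cat read 12.66, 12.48, 12.66 and 12.61 with FK866, against 12.85, 12.72, 12.73 and 12.64 in control. The groups overlapped at -0.13 (SE 0.08). Gsta4 read 11.87, 11.36, 11.67 and 11.73 with FK866, against 12.11, 11.56, 11.68 and 12.02 in control, a difference of -0.18 (SE 0.15). Nqo1 read 8.64, 9.0, 8.88 and 8.79 with FK866, against 8.52, 8.89, 8.60 and 8.74 in control, a difference of 0.14 (SE 0.11). Nqo1 was the only member higher in 4 of 4 pairs, against 6.9% of all tested genes.

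The 8 members Gpx4, Gsta4, Txnrd2, Glrx, Prdx2, Prdx4, Cat and G6pdx were lower in 4 of 4 hepatocyte pairs, which is 22.2% of 36, against 6.97% of all tested genes. The NRF2 group in hepatocytes differed by -0.14 (SE 0.10) for Nfe2l2, -0.03 (SE 0.09) for Keap1, -0.09 (SE 0.13) for Hmox1, -0.03 (SE 0.16) for Gclc, -0.02 (SE 0.08) for Gclm, -0.09 (SE 0.17) for Txnrd1 and -0.00 (SE 0.12) for Srxn1.

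**Figure D4:**
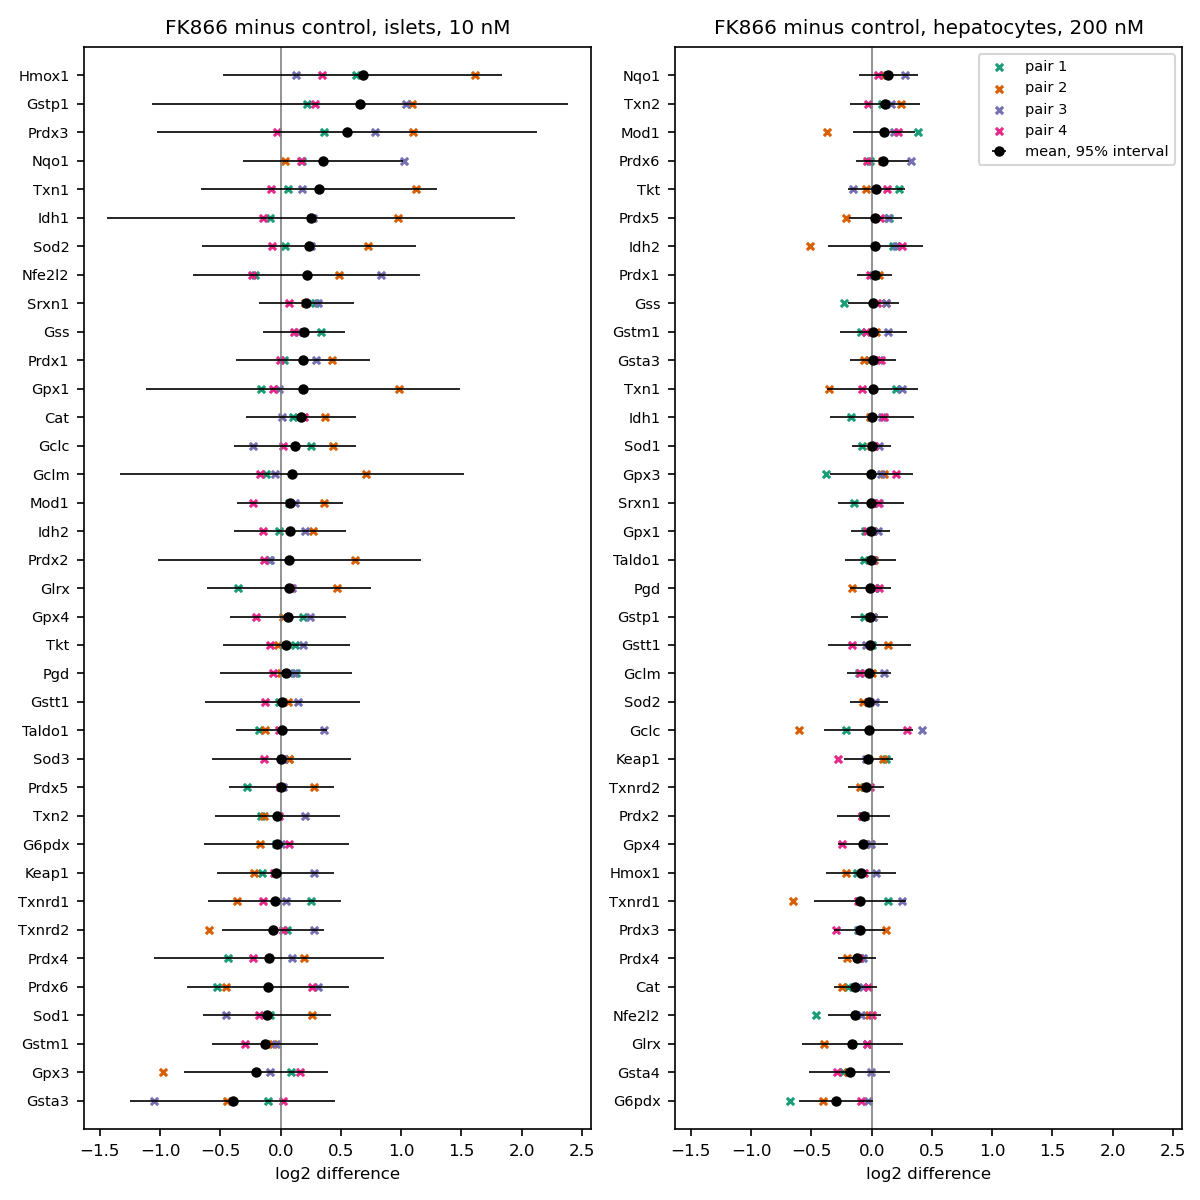
Difference of log2 signal, FK866 minus control, in islets (left) and hepatocytes (right): points and bars give the mean and 95% interval (n = 4 arrays per group), crosses the 4 pairs of arrays with the same number. Islet intervals are wider, and pair 2 lies at the edge for several genes, such as 1.62 for Hmox1.

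With the replicate number as a block, which pairs the arrays within each tissue, 0 members passed in either tissue, and 1 gene of 8915 in islets (0.0112%) did. At an unadjusted p under 0.05 in that paired fit, 3 islet members stood (Gstp1, Hmox1 and Prdx3), where 11.6% of tested genes did, and 2 hepatocyte members (Gsta4 and G6pdx), where 6.25% did.

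The difference between the islet and the hepatocyte response was tested as an interaction, with doses of 10 nM and 200 nM. Of 35 tested members 26 were higher and 9 lower, and 0 passed by limma, where 0% of 7520 tested genes did (0 members and 1.1% of genes at an unadjusted p under 0.05). Without control islet array 2, 20 were higher and 15 lower, and the median fell to 0.02, against 0.13 with all arrays; without both islet arrays numbered 2 the counts were 24 and 11. Hmox1 had 0.77 (SE 0.56) and Cat 0.29 (SE 0.20), the 2 smallest p without the block. Without both islet arrays numbered 2 they had 0.46 (SE 0.26) and 0.23 (SE 0.12). With the replicate number as a block 0 members passed. Then 4 members (Gstp1, Prdx3, Hmox1 and Cat) stood at an unadjusted p under 0.05, where 9.69% of genes did. In the fit without the block, leaving out control islet array 2 alone gave these members 0.02, 0.01, 0.26 and 0.15. Of the other pathway genes 0 of 91 in islets and 0 of 103 in hepatocytes passed for FK866. In islets the smallest p were those of Sesn1, a stress-induced sestrin (-0.37, SE 0.16), and Entpd5 (0.46, SE 0.20). In hepatocytes they were those of the methionine sulfoxide reductase Msrb3 (0.36, SE 0.10) and Mt2 (-0.36, SE 0.12). Entpd5 and Mt2 also had the smallest p in the interaction, at 0.61 (SE 0.23) and 0.45 (SE 0.22), without passing.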

How the data were processed

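RNA of 16 Illumina arrays was analysed; groups, replicate numbers, doses and times came from the labels. The authors deposited the intensity of 25697 probes, linear and partly negative, so apparently after background subtraction, and the detection p-value beside each deposited intensity. The deposited normalized table holds a score per gene symbol, by its values the centred and scaled log10 intensity, and was used only to name probes and as an alternative scale. The authors' software is not given in the sources used here.

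A probe, or run of neighbouring probes, was given a symbol when its log10 values matched the deposited score on all 16 arrays. Islet scores are displaced by 1 row over 5015 symbols, from the row after Pmpcb to the row after Il22ra2 (4477 matched after the shift, 180 without). The displaced symbols include Nfe2l2, Keap1, Nqo1 and Pgd. Of 16647 symbols 16645 matched, 16 sharing a probe were left out and 16629 were named. The probe with the highest mean stood for a gene.

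Normalization and tests ran in limma 3.58.1 under R 4.3.3 (neqc, offset 16, quantile normalization, log2) and Python 3.11.15 with numpy 2.4.6, scipy 1.17.1 and matplotlib 3.10.9. All 16 arrays were normalized together for tissue and interaction comparisons and each tissue's 8 arrays for FK866. Genes entered a tissue or FK866 test with a detection p below 0.05 on 4 or more of its 8 arrays. For the interaction, such detection was required on 4 or more arrays of each tissue. The moderated test used lmFit and eBayes with Benjamini-Hochberg adjustment over all tested genes. The fit was tested on simulated data. The number of arrays limits the precision.

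Replicate numbers within a tissue were taken as pairs. Deviations of same-numbered arrays correlated at 0.529 to 0.926 in islets and 0.385 to 0.615 in hepatocytes. Differently numbered arrays correlated at -0.847 to 0.667 in islets, which overlaps the same-numbered range, and at -0.370 to 0.0778 in hepatocytes. Across tissues same-numbered arrays did not correlate (-0.108 to 0.0856 in control arrays and -0.0989 to 0.0682 in FK866 arrays). The pairing comes from the data, not from the labels. The members, gene lists and tests were chosen with earlier results of these data known. Named in full were the members with the 8 largest called differences per direction, those on the smallest FK866 p (3 without and 3 with the block), and fixed NRF2 genes; of other pathway genes the 5 largest per direction. Alternatives changed the normalization, background, filter, probe choice, variance model, score scale, block and arrays.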

Additional observations from a re-analysis of the deposited data

Results flagged for a closer look

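Within groups of 4 arrays, 20 of 146 gene and group sets had 1 array whose gap to the nearest other array passed Dixon's 95% critical value; chance flags about 1 in 20 groups. Of the 20, 14 were islet arrays numbered 2, the arrays that stood apart in median signal. Values are log2 signals. On FK866 islet array 2, Gclm read 9.79 (others 11.45 to 11.47), Gpx1 12.24 (13.45 to 13.58), Gstm1 11.95 (12.32 to 12.37), Gstt1 9.87 (10.63 to 10.71), Glrx 11.94 (12.44 to 12.54), Prdx2 12.43 (13.53 to 13.60), Prdx3 8.59 (10.26 to 10.55), Prdx4 10.90 (11.99 to 12.08), Sod2 12.47 (13.29 to 13.31) and Prdx6, higher, 6.45 (5.97 to 6.05). On control islet array 2, Gclm read 9.08 (11.50 to 11.65), Gpx1 11.23 (13.59 to 13.61), Prdx2 11.80 (13.63 to 13.71) and Cat 6.61 (7.15 to 7.24). The part that this array's fibroblast and stellate markers play was not tested.

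The other 6 were single arrays elsewhere. Gpx3 on control islet array 4 read 11.92 (12.33 to 12.40) and Taldo1 on control islet array 3 read 11.84 (12.25 to 12.28). In FK866 hepatocytes Idh2 read 9.75 on array 2 (10.49 to 10.58) and Tkt 13.14 on array 4 (12.91 to 12.93). In control hepatocytes Gpx4 read 12.44 on array 1 (12.31 to 12.32) and Sod3 6.37 on array 4 (5.90 to 5.97).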

How the results depend on the processing

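The counts of called members kept their value within 1.5 times, and their direction, under each alternative run. The median member in control islets minus control hepatocytes ran between -2.11 and -1.67 when 1 array was left out, with -1.67 without control islet array 2. In the FK866 arrays it was -1.40 with the mean of a gene's probes and -1.97 with each tissue normalized on its own; that setting moved the median of all genes by -0.12 in the control and by -0.11 in the FK866 arrays, so single differences are relative to it. The FK866 median in islets ran between -0.012 and 0.18 when 1 array was left out. With a replicate block in the tissue comparisons, whose numbers did not pair across tissues, 27 members were lower and 3 higher in the control arrays, where 26.5% and 30.5% of all tested genes were, and 28 lower and 3 higher in the FK866 arrays, where 30.4% and 35.5% were. Over all genes the alternatives gave few FK866 calls: 1 higher and 1 lower in hepatocytes on the deposited scores, 1 lower in islets with no further background correction, 1 higher in islets with the block, and in the interaction 1 higher and 2 lower with the block and 1 higher without both islet arrays numbered 2 or the control one alone; no member was among them. Keap1 lost its tissue call on the deposited scores (0.11 score units). Leaving out both hepatocyte arrays numbered 2, an alternative chosen after seeing the data, gave 0 called members for FK866 in hepatocytes and a median of -0.02. The cause of these shifts was not tested. Signals near background limit Nqo1, Nfe2l2, Prdx6, Gclc, Sod3 and Gsta4 in islets.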

Other observations

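Some genes had several probes, and for some of them the FK866 differences disagreed in sign. In control islets minus control hepatocytes the probes of Prdx2 and of Gpx4 disagreed in sign, with -0.90 to 0.55 for Prdx2 and -1.13 to 0.64 for Gpx4. In islets the second Prdx6 probe differed by 0.17 against -0.10 for the probe used, and the second Gstm1 probe by 0.40 against -0.13. In hepatocytes the second Gstm1 probe differed by -0.29 against 0.01. For Srxn1 the 3 probes differed by 0.21, 0.79 and 0.29 with FK866 in islets, and for Gstp1 by 0.66, 0.46 and 0.07, all in the same direction.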
